A study of Mus musculus with 3 samples.

Results

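Class 1 lamina-associated domains (LADs) were the 409 of 1128 LADs that carry the class number 1 in the deposited table, and no count was used to choose them. They covered 786 Mb, or 66.8% of the LAD sequence in the table, and lay on all 19 autosomes. The shortest spanned 62.5 kb, the longest 11400 kb and the median LAD 1517 kb, with length taken as end minus start plus 1 base. RNA was sequenced from 3 mouse embryonic fibroblast lines, labelled iMEF and named WT23T (line 1), WT47T (line 2) and WT78T (line 3). The lines were derived separately from animals of a single colony, each gave 1 library, and beyond the WT of these names the labels give no genotype, allele or treatment. The title of the series describes LAD classes as defined by repressive histone methylation, and how LADs were called or numbered is not given in the sources used here.

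LADs are stretches of chromatin that touch the nuclear lamina, the protein meshwork beneath the inner nuclear membrane. Most genes within them are silent or weakly transcribed, and large families of genes used only in specialised cells, such as odorant receptors in sensory neurons, often lie in them. LADs also hold processed pseudogenes, intron-less copies of messenger RNAs that were inserted back into the genome. A read from the parent messenger RNA can match such a copy almost as well as its source.

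The sequences below show how close some of these copies are, because they lie in LADs that the results turn on. Each pair gives 80 bases of a coding transcript and the matching 80 bases of a pseudogene inside a class 1 LAD, read from GENCODE release M21 transcripts (GRCm38), with the bases that differ in capitals. Every coding window lies within the protein-coding part of its transcript. Actg1, the gene of cytoplasmic gamma-actin (chr11:120345690-120348542, minus strand), and Gm12715 (chr4:103563402-103564529, plus strand) differ at 3 of these bases and are 99.6% identical over 1128 bases.
Actg1: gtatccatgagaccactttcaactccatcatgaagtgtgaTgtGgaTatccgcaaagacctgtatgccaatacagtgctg
Gm12715: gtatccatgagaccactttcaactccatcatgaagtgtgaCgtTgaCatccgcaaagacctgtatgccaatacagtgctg
Gapdh, a glycolytic enzyme (chr6:125161715-125166467, minus strand), and Gm12070 (chr11:26786633-26787634, plus strand) differ at 1 base of the window and are 99.9% identical over 1002 bases.
Gapdh: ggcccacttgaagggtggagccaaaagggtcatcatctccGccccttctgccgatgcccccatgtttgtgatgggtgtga
Gm12070: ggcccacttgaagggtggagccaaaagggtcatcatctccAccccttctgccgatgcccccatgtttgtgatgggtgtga
Cdh11, an adhesion protein of mesenchymal cells (chr8:102632095-102785642, minus strand), lies in a class 1 LAD itself. One of its copies, the transcribed unprocessed pseudogene 2610005L07Rik (chr8:20385782-20424814, minus strand), lies in another and differs at 4 bases of the window. It is less close than the Actg1 and Gapdh copies, at 96.0% identity over 943 bases of a Cdh11 transcript of 5647 bases.
Cdh11: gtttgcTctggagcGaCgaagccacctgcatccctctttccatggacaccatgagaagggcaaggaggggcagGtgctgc
2610005L07Rik: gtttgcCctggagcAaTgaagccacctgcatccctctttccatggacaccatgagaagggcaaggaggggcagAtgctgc

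Counts in the table totalled 1566086, 1496099 and 1726062 over all LADs in lines 1, 2 and 3, of which class 1 LADs held 924546, 935640 and 1012650. Values are given as CPM, counts scaled to 1000000 counts in all LADs of that line, and transcript density as CPM per Mb of LAD. Reads outside LADs are not in the table, so the full depth of each library is unknown. Among class 1 LADs with 1 to 20 counts, 89.1%, 82.6% and 89.7% of values were even in lines 1, 2 and 3, so a count may not be an independent molecule. Across class 1 LADs, density in line 2 followed that in line 1 with a Spearman's rho of 0.97, and density in line 3 gave 0.94 with line 1 and 0.92 with line 2.

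Class 1 LADs took a smaller share of counts than of sequence. They held 59.0%, 62.5% and 58.7% of all counts in lines 1, 2 and 3 (mean 60.1% ± 2.14, SD, n = 3 lines). The median LAD had 512, 417 and 571 counts, and the highest had 72809, 92965 and 73173. LADs with 10000 counts or more numbered 22, 25 and 25, and those with at most 3 counts numbered 21, 32 and 16. The median density was 195, 182 and 221 CPM per Mb in lines 1, 2 and 3, and 7.64 ± 0.14 (SD, n = 3 lines) as log2(CPM per Mb + 1), the scale of all medians below.

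Counts were concentrated in few domains. Ranked by mean CPM, 26 LADs (6.36% of the class) held 50% of class 1 counts. The 10 highest held 29.9% ± 2.51 (SD, n = 3 lines), whereas the 204 lowest held 3.04% ± 0.568.

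The highest class 1 LAD, chr4:103290597-105115590, alone held 7.88%, 9.94% and 7.23% of class 1 counts in lines 1, 2 and 3. It overlaps Prkaa2, a catalytic subunit of AMP-activated kinase, and Dab1, an adaptor of Reelin signalling, and holds the Actg1 copy Gm12715 shown above. At 27584 ± 5710 CPM per Mb (SD, n = 3) it was also the densest, and the table does not divide its counts between these genes.

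The second by CPM, chr2:174471859-179856841, had 47313, 35629 and 45834 counts in lines 1, 2 and 3. It lies near the distal end of the chromosome and overlaps 54 coding genes, among them 11 Zfp genes and the phosphatase regulator Phactr3, and 16 near-identical pseudogenes. The ninth, chr11:26610590-29113081, overlaps 3 coding genes, including Efemp1, a secreted matrix protein of fibroblasts, and holds the Gapdh copy Gm12070. It had 21834, 20729 and 12357 counts, so line 3 was the lowest. The tenth, chr4:89730640-92810629, overlaps Elavl2, an RNA-binding protein of neurons, holds another Gapdh copy and had 19607, 22058 and 11635 counts. Of the 10, the one at chr5:145294353-146674347, which overlaps the Mediator kinase Cdk8 and the liver cytochromes Cyp3a11 and Cyp3a16, varied least, at 12319 ± 421 CPM (SD, n = 3).

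**Figure D1:**
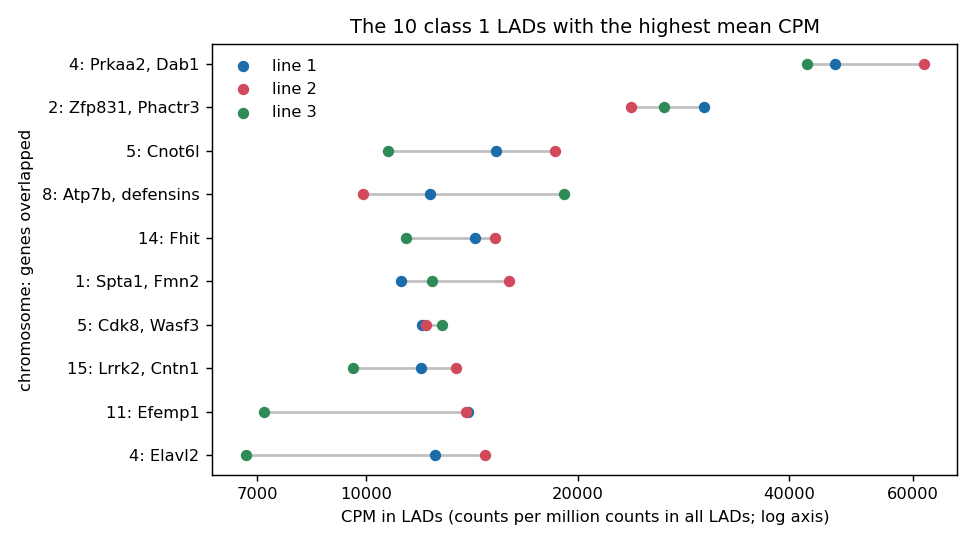
CPM in lines 1, 2 and 3 (points, log axis) for the 10 class 1 LADs with the highest mean CPM, labelled by chromosome and genes they overlap, with grey bars from the lowest to the highest line. The chromosome 4 LAD with Prkaa2 and Dab1 lies above all others in every line, and line 3 is the lowest in the chromosome 11 LAD with Efemp1.

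Some of the densest class 1 LADs were short. A LAD of 92.5 kb at chr13:67618128-67710627, in which Zfp738, Zfp729a and Zfp65 encode zinc finger proteins, had 1950, 1371 and 1772 counts and a density of 11489 ± 1809 CPM per Mb (SD, n = 3), and annotated exons cover 26.2% of it. A LAD of 80 kb at chr13:74408107-74488105, with Zfp825 as its only coding gene, had 959, 558 and 1336 counts. Both are among the 5 shortest of the class. The LAD at chr2:150941934-151476931, which holds the centrosomal gene Ninl, had 9501, 11220 and 9523 counts. The second densest, chr6:3014638-3327136, contains no annotated coding gene and had 8497, 9766 and 9615 counts, or 18692 ± 1916 CPM per Mb (SD, n = 3). Its annotated genes are pseudogenes, among them 3 of vomeronasal receptors, and non-coding RNAs such as Gm8579.

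At the other end, 7 class 1 LADs (1.71%) stayed at or below 3 counts in each of the lines, against 12.1% of all LADs in the table. A count of 3 corresponds to 1.92, 2.01 and 1.74 CPM in lines 1, 2 and 3, and below this, transcription was not detectable at this depth. They were the LADs with Dock2, a Rac activator of blood cells (chr11:34653064-34788063), Ccdc60 (chr5:116161945-116374443), the transporter Slc22a30 (chr19:8308565-8523563), the synaptic protein Lrfn2 (chr17:48541435-49423932), Fam155a (chr8:8850680-9920676), and Nox3, an NADPH oxidase of the inner ear (chr17:3589078-4784073), and a LAD without a coding gene (chr18:76598775-76806273) that had 0 counts in all 3 lines. None of the 7 held a near-identical pseudogene. The limit is in counts and not per Mb of LAD, and the classes differ in length. The median LAD spanned 1517 kb in class 1, 300 kb in class 2 and 236 kb in class 3. Whether length accounts for the lower share at the limit in class 1 was not tested. The number depends on the limit, since 1 LAD had 0 counts in every line and 13 had at most 6. It was 11 without line 1, 11 without line 2 and 15 without line 3, and leaving out a line cannot lower it.

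Length was weakly related to density. The longest, chr1:106857163-118257126, spans 11400 kb with the neurexin-family gene Cntnap5a and the cadherins Cdh7 and Cdh19, and had 2644, 2950 and 3467 counts, or 166 ± 15.4 CPM per Mb (SD, n = 3). The third longest, chr15:12943641-21841112, holds the cadherins Cdh6, Cdh9, Cdh10 and Cdh12, and had 713, 708 and 605 counts, or 47.9 ± 7.45 CPM per Mb. The fifth longest, chr10:100050764-107903238, with the ciliary gene Cep290 among 34 coding genes, had 14369, 15708 and 14697 counts, or 1197 ± 129 CPM per Mb. The shortest, chr8:47118059-47180558, overlaps the last 511 bases of Stox2, its only coding gene, and had 2, 4 and 10 counts. Across the 409 LADs, rho of length with density was 0.17, and it was 0.10 with only LADs whose counts summed to 10 or more and 0.093 without LADs that hold near-identical pseudogenes, defined further on. Medians in 5 groups of rising length were 6.92, 7.21, 7.39, 8.34 and 7.87. For CPM not divided by length, rho was 0.50.

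Chromosomes differed in class 1 density, and the order depended on whether counts were pooled. Pooled over all class 1 sequence of a chromosome, density was highest on chromosomes 4 (2008 ± 350 CPM per Mb, SD, n = 3), 2 (1639 ± 25.9) and 13 (1092 ± 31.2), and lowest on chromosomes 19 (207 ± 27.3), 6 (336 ± 22.1) and 16 (353 ± 44.8). A single LAD decided several of these values. Without the top LAD of each, density fell to 918 ± 127 on chromosome 4, from 463 to 114 on chromosome 11 and from 483 to 127 on chromosome 15. By the median LAD, chromosomes 10 (9.82 ± 0.014) and 2 (9.62 ± 0.14) were the highest, and chromosomes 15 (5.32 ± 0.28) and 11 (5.42 ± 0.57) the lowest. Chromosome 2 was thus high by both measures. As a ratio of pooled densities, lines 2 and 3 differed most on chromosome 8, with 748, 611 and 1233 CPM per Mb in lines 1, 2 and 3. The median LAD there hardly differed, with 7.29, 7.27 and 7.38. A single LAD, that of Cdh11 described below, had 1216 CPM in line 2 and 15468 in line 3. By the median LAD, lines 2 and 3 differed most on chromosome 6, with 5.50 in line 2 and 7.34 in line 3.

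**Figure D2:**
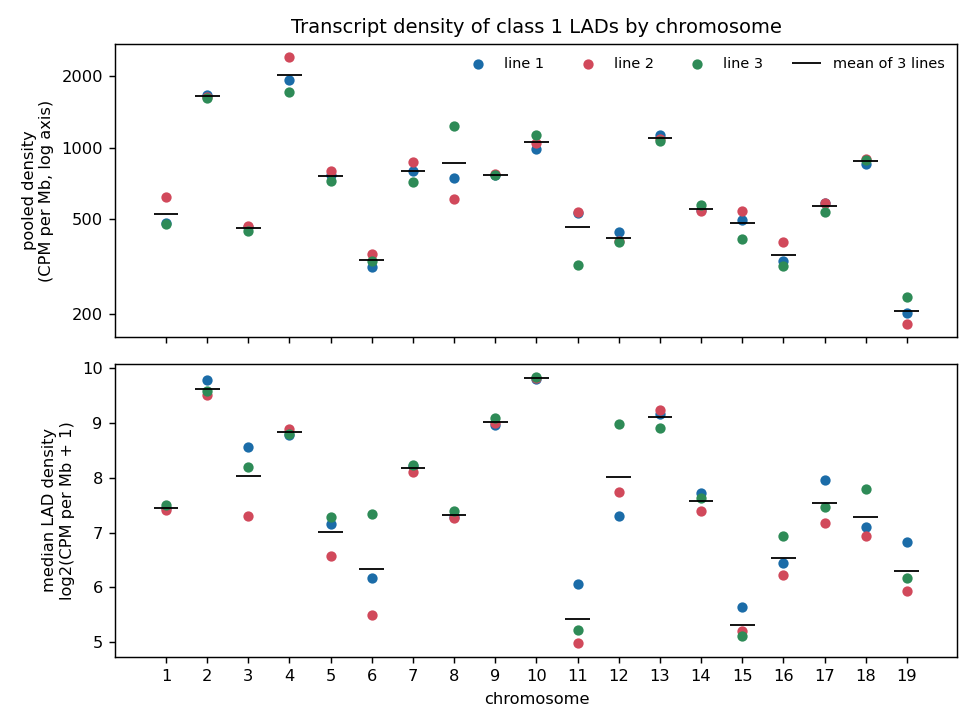
Pooled density of class 1 LADs (upper panel, CPM per Mb, log axis) and median LAD density (lower panel, log2(CPM per Mb + 1)) on each of 19 chromosomes, with points for the 3 lines and bars for their mean. Chromosome 4 is the highest when pooled, and chromosomes 10 and 2 are the highest by the median LAD. On chromosome 8, line 3 stands well above the others in the upper panel only.

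Density was higher toward the distal end of chromosomes and near class 3 LADs. Position is the LAD midpoint as a percentage of the highest LAD end on its chromosome, since no chromosome length was used here, and mouse autosomes carry the centromere at the start. The rank correlation of position with density was 0.17 in each line. In 5 groups from proximal to distal, medians were 7.87, 6.61, 7.07, 8.24 and 8.73, so the most proximal group stood above its neighbour. The distal group had a higher median than the other class 1 LADs of its chromosome on 15 of 19 chromosomes.

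Distance to the nearest class 3 LAD, measured from edge to edge, gave rho of -0.17 with density, with medians of 8.75, 7.84, 7.45, 6.64 and 7.06 from the nearest to the farthest group. The nearest group was higher on 13 of 19 chromosomes. Near and distal LADs overlap. In the proximal part of chromosomes the nearest LADs had a median of 8.61 (30 LADs) against 6.99 for the rest (175 LADs), and in the distal part 8.75 (53 LADs) against 7.75 (151 LADs). The rank correlation of density with distance was 0.04 for the nearest class 1 LAD and 0.0094 for the nearest class 2 LAD. From midpoint to midpoint it was 0.12 for class 1. Without the LADs that hold near-identical pseudogenes, rho with distance was -0.13 for class 2 and -0.19 for class 3, and rho with position was 0.045.

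By the class of the neighbours, LADs between other class 1 LADs had the lowest median when averaged over the lines. In line 3 the lowest were the 90 LADs with class 1 on 1 side and class 2 on the other, at 7.13 against 7.31. Over the lines, the median was 6.89 ± 0.52 (SD, n = 3 lines) for the 88 LADs between class 1 LADs and 7.17 ± 0.061 for these 90. It was 7.99 ± 0.34 for the 41 with a class 2 LAD on both sides and 8.66 ± 0.11 for the 38 with a class 3 LAD on both sides. These 38 lay farther along the chromosome than the 88 between class 1 LADs, with a median position of 81.0% against 40.3%. They were also longer (1646 against 1224 kb) and richer in exons (2.85% against 2.02%), and the part of these features was not tested. The 137 LADs with class 1 on neither side had 8.29 ± 0.16, against 7.40 ± 0.17 for the other 272. The next LAD along the chromosome was of class 1 in 180 cases, class 2 in 109 and class 3 in 110. Density of a class 1 LAD and of the nearest other class 1 LAD gave rho of 0.30, which was 0.49 for the 96 within 200 kb and 0.22 for the 162 over 1000 kb away. The same rho was 0.08 with the nearest class 2 LAD and 0.11 with the nearest class 3 LAD. Neighbouring LADs can share a gene, and the smallest gap between LADs of the table is 52.5 kb.

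**Figure D3:**
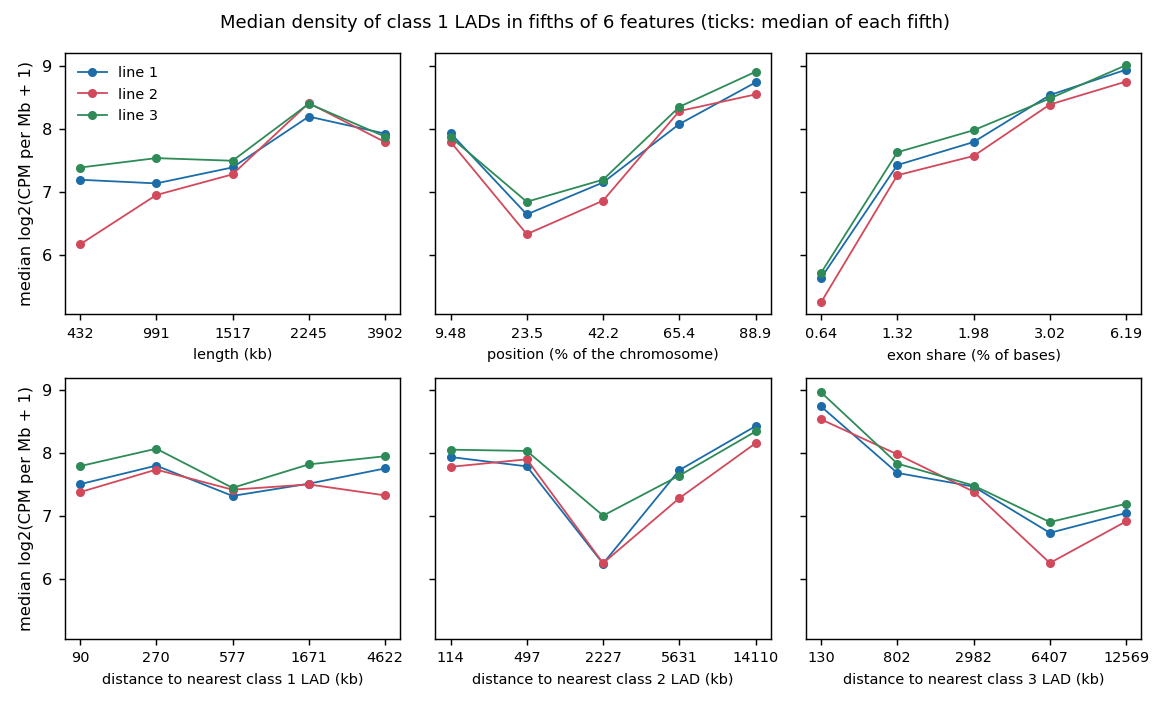
Median log2(CPM per Mb + 1) of class 1 LADs in 5 groups of rising length, position, exon share, and distance to the nearest LAD of class 1, 2 and 3, with 1 curve per line and tick labels giving the median of each group. All 3 lines rise with exon share and fall from the group nearest class 3 LADs to the fourth group.

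Density rose with annotated content. Near-identical pseudogenes per Mb had rho of 0.42 with density, the share of LAD bases in exons 0.34 and coding genes per Mb 0.29. Without LADs that hold such pseudogenes, rho with exon share was 0.23. From the lowest to the highest of 5 groups of exon share, medians were 5.53, 7.44, 7.78, 8.47 and 8.90. The rise was present in longer LADs (6.89, 8.58 and 9.28 in 3 groups of exon share) and in shorter ones (5.01, 7.33 and 8.15). Class 1 LADs overlapping more than 20 coding genes (40 LADs) had a median of 9.41 ± 0.17 (SD, n = 3 lines), those with 1 to 5 (246 LADs) 7.21 ± 0.16 and those with none (39 LADs) 5.91 ± 0.58.

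Most class 1 counts fell in LADs with a near-identical pseudogene, defined as a pseudogene transcript that aligns to a coding transcript over 300 bases or more at an identity of 95% or more. Class 1 LADs held 825 of the 1095 such pseudogenes in LADs (75.3%), against 69.7% of all genes in LADs. Of the 825, 510 copy a gene outside all LADs of the table. The 263 LADs with at least 1 made up 76.8% of class 1 sequence and held 91.4%, 92.6% and 88.6% of class 1 counts in lines 1, 2 and 3. Their median was 8.35 ± 0.18, against 5.65 ± 0.58 in the 146 without (SD, n = 3 lines). All 10 LADs with the highest mean CPM held at least 1, against 64.3% of all class 1 LADs. CPM is not divided by length, with which it had a rho of 0.50. The median density rose with the number of such pseudogenes, to 7.33 for 1 (103 LADs), 8.78 for 2 or 3 (99 LADs) and 9.0 for 4 or more (61 LADs).

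The LADs with such a pseudogene were also longer, with a median of 1837 kb against 967 kb, and richer in exons, with a median share of 2.22% against 1.69%. Median length was 1592 kb with 1 such pseudogene, 1787 kb with 2 or 3 and 2947 kb with 4 or more. Median exon share in these groups was 1.65%, 1.99% and 4.16%. Within 5 groups of length, the medians with and without such a pseudogene were closest in the fourth, at 8.59 (68 LADs) and 7.20 (14 LADs), and farthest apart in the second, at 8.46 (43 LADs) and 4.84 (39 LADs). Within 3 groups of exon share they were 7.26 and 4.51 in the lowest, 8.44 and 6.78 in the middle, and 9.09 and 6.34 in the highest. Whether length or exon content accounts for the difference, or for the rise with the number of pseudogenes, was not tested.

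The values differed with the parent of the copy. The 232 LADs with at least 1 parent outside the LADs had a median of 8.50 ± 0.16, and the 31 with parents only inside LADs 6.74 ± 0.41 (SD, n = 3 lines). The 232 were also longer, with a median of 1916 kb against 1075 kb, and had a lower median exon share, 2.04% against 2.74%. A LAD with more copies also has more chances to be among the 232. The 78 LADs with a copy of a ribosomal protein gene, which are highly expressed in dividing cells, had 8.91 ± 0.12. The 12 LADs with a Gapdh copy had 9.59 ± 0.0053. This SD is that of a median, and these LADs held 11.6%, 12.5% and 7.93% of class 1 counts in lines 1, 2 and 3. The 14 with a copy of Hmgb1, an abundant chromatin protein, had 8.52 ± 0.090. For all 263 LADs with a near-identical pseudogene the median was 8.35. These groupings were made after results had been seen, and not every frequent parent was grouped. The parent with the most copies, D10Wsu102e (23 in 15 LADs), was left out. How reads that match both a pseudogene and its parent were assigned is not given in the sources used here. Whether such reads account for the higher values was not tested.

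**Figure D4:**
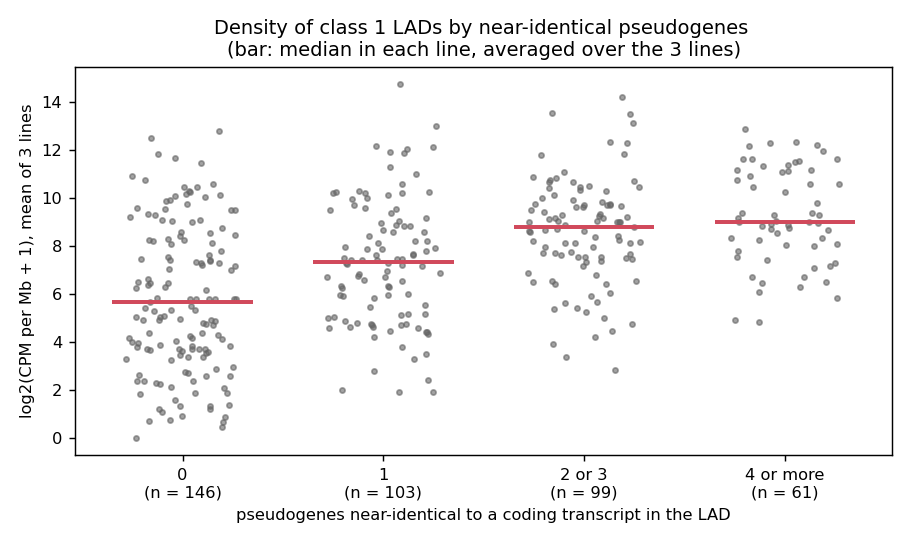
Density of each class 1 LAD (points, log2(CPM per Mb + 1), mean of 3 lines) by the number of near-identical pseudogenes it holds, with bars for the median in each line averaged over the lines. The bars rise from 5.65 for none to 9.0 for 4 or more, and the points of the groups overlap widely.

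Gene families differed in how much of them lay in class 1. Of all coding genes in LADs, 70.8% were in class 1, and of 18 families counted by symbol 12 had a larger share there and 6 a smaller one. Class 1 held 898 of 1004 olfactory receptor genes (89.4%), 275 of 306 vomeronasal receptor genes, 26 of 28 bitter taste receptor genes, 42 of 43 protocadherins, 11 of 11 cadherins, 48 of 48 defensins and 12 of 12 GABA receptor genes. The defensins and the bitter taste receptor genes lie in 3 LADs each, the GABA receptor genes in 4, the cadherins in 5 and the protocadherins in 6. Olfactory and vomeronasal receptor genes lie in 22 and 21 LADs, so the genes of a family are not independent. The 6 families with a smaller share were killer lectin-like receptors (1 of 21), collagens (3 of 9), serpins (13 of 35), potassium channels (17 of 34), glutamate receptors (7 of 13) and solute carriers (36 of 54). The share of solute carriers, 66.7%, was near the 70.8% of all coding genes, and those of collagens and glutamate receptors rest on few genes.

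The LADs of these families ranged from nearly silent to dense. The largest olfactory cluster, chr2:85112142-90367124, holds 226 olfactory receptor genes and had 755, 761 and 688 counts, or 88.1 ± 10.9 CPM per Mb (SD, n = 3). Another, chr7:105829793-108937282, with 68 olfactory receptor genes and 10 near-identical pseudogenes, had 15984, 19842 and 10098 counts. A cluster of 11 genes of major urinary proteins, pheromone carriers made by the liver, had 8, 4 and 18 counts (chr4:59940734-60888230). The family medians were 9.10 ± 0.18 over 22 olfactory LADs, 8.82 ± 0.034 over 21 vomeronasal LADs and 7.02 ± 0.27 over 6 protocadherin LADs (SD, n = 3 lines).

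LADs with Zfp genes, which encode zinc finger proteins, many of them repressors of transposable elements, were dense as a group. The class holds 97 of the 113 Zfp genes found in LADs, in 25 LADs with a median of 10.09 ± 0.32 (SD, n = 3 lines), and 22 of the 25 lay above the class median. The cluster at chr13:64463138-67450628, with 13 Zfp genes, had 14757, 13795 and 15882 counts, and that at chr17:21586521-23534013, with 15, had 7487, 7721 and 8498. The lowest of the 25 was chr11:73335442-74330438, which also holds 28 olfactory receptor genes and had 115, 92 and 172 counts. A near-identical pseudogene was present in 22 of the 25, against 263 of all 409 class 1 LADs, and its part in the higher median was not tested.

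Few fibroblast genes could be read in class 1 LADs. Of 48 fibroblast genes, 3 lie in any LAD and 2 in class 1, Cdh11 and Mmp2, a collagen-degrading protease. The Mmp2 LAD, chr8:92687915-93797910, had 8742, 6452 and 7529 counts and lay above 95.6% of class 1 LADs. Of 12 neuronal genes, 11 lie in any LAD and 9 in class 1, and the median of their LADs was 8.99 ± 0.050 (SD, n = 3 lines). Among the 9, Cntnap2 and Dlgap1 cross a border, with 37.8% and 54.6% of their exon bases in the LAD. The LAD of the synaptic gene Lrrtm4 had 166, 114 and 334 counts, and that of the vesicle protein Snap25 had 5882, 3917 and 6904. Of the immune, epithelial and muscle markers, 5 of each, 1, 0 and 1 lie in any LAD and none in class 1. The table gives counts per LAD and not per gene, so the labelled cell type could not be checked by its markers.

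The 3 lines differed most in sparse LADs. Of 377 class 1 LADs whose counts averaged 10 or more, 56 (14.9%) had at least a 4-fold range of CPM + 1 between lines, against 18.2% of the LADs of all classes at that count. With 1 library per line these differences have no replicate check, and edgeR put the common biological coefficient of variation at 0.43 over 354 class 1 LADs. In 5 groups of rising mean count, 25, 15, 10, 3 and 3 LADs had such a range. A near-identical pseudogene was present in 41.1% of the 56 LADs and in 73.5% of the other 321. The 56 were also shorter, with a median of 1025 kb against 1785 kb, and sparser, with a median mean count of 152 against 864. Whether length or count accounts for the difference was not tested.

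In 37 of the 56 LADs line 3 was the highest, or 9.81% of the 377, against 12.0% of the 839 LADs of all classes whose counts averaged 10 or more. Line 1 was the highest in 13 (3.45% against 4.65% of the 839) and line 2 in 6 (1.59% against 1.55%). Line 2 was the lowest in 36 (9.55% against 11.8%), line 3 in 12 (3.18% against 3.34%) and line 1 in 8 (2.12% against 3.1%). Without line 3, 16 LADs had such a range, without line 2, 30, and without line 1, 45. A range over fewer lines cannot be wider, so only the limit on the mean count could add LADs here. The LAD at chr2:168991876-170076872, which overlaps the transcription factor Tshz2, had 64, 0 and 84 counts. The LAD at chr7:49987470-51594963, with the secreted protein gene Nell1, had 10, 28 and 416 counts, and here line 1 was the lowest.

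Where counts averaged 1000 or more, 6 of 158 class 1 LADs (3.8%) had such a range, against 4.24% of LADs of all classes, and in each of them line 3 was the highest and line 2 the lowest. These 6 were picked out after their values were seen. The LAD of Kctd12, an auxiliary subunit of GABA-B receptors (chr14:101965999-103008495), had 2012, 421 and 8387 counts. The LAD of Fat4, a giant cadherin of planar polarity (chr3:38930988-40448482), had 1070, 238 and 3130, and the protocadherin cluster (chr18:36853901-37603897) had 606, 240 and 3319. The LAD with Bicc1, an RNA-binding protein, and Phyhipl (chr10:70360858-71128355) had 3596, 1846 and 12683, and a LAD with olfactory and vomeronasal receptor genes (chr10:78633332-79475828) had 1244, 561 and 3814. The sixth was the LAD of Cdh11.

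The Cdh11 LAD, chr8:95985404-103937878, holds Cdh11 and Cdh8 as its only coding genes and had 5346, 1819 and 26698 counts in lines 1, 2 and 3. Line 3 was 12.7-fold higher in CPM than line 2 and 4.53-fold higher than line 1. Beyond it, class 1 LADs on the same chromosome hold 5 copies of Cdh11, aligned to it over 718 to 892 bases. The LAD at chr8:20225644-22010638, with a defensin cluster and 3 of the copies, including 2610005L07Rik shown above, had 19320, 14802 and 33010 counts, 1.93-fold higher in CPM in line 3 than in line 2. The LAD at chr8:18978148-20143143, with the other 2 copies, had 7171, 5143 and 10466 counts, 1.76-fold higher. The order of the lines was the same in all 3 LADs, an order shared by 113 (28.1%) of the 402 class 1 LADs with over 3 counts in a line. Whether reads of Cdh11 contribute to the counts of its copies was not tested.

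**Figure D5:**
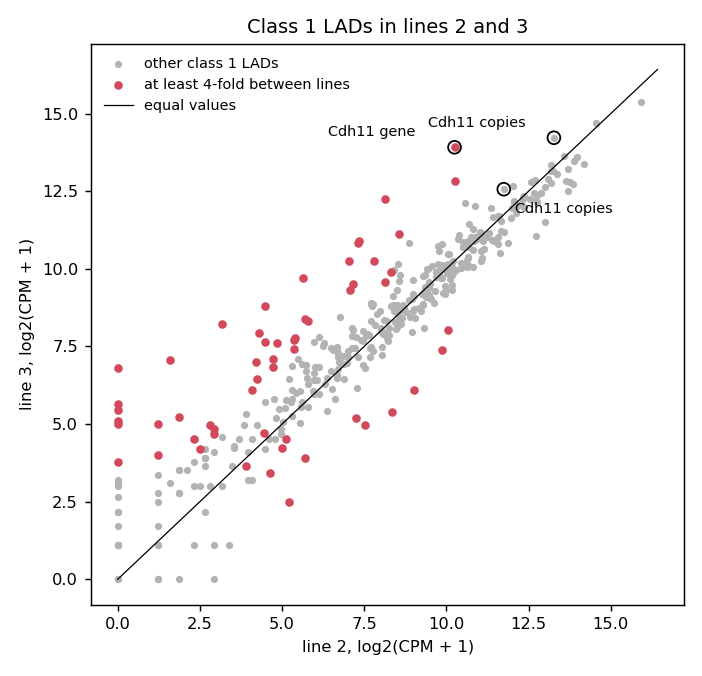
CPM of each class 1 LAD in line 2 (x axis) and line 3 (y axis) as log2(CPM + 1), with red points for the 56 LADs with at least a 4-fold range between lines, circles for the LADs of Cdh11 and its copies, and a line at equal values. Most red points lie above the line, and the Cdh11 gene lies farther from it than its copies.

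Against the other classes, the class 1 median was higher in every line, with too few lines for an exact test to pass 0.05. The median exceeded that of class 2 by 1.73, 2.50 and 2.14 in lines 1, 2 and 3 and that of class 3 by 0.80, 1.27 and 0.20. A two-sided exact sign-flip permutation test over the 3 lines gave p = 0.25 for both, the smallest p that 3 lines allow. The differences depended on which LADs were kept. Without LADs that hold a near-identical pseudogene, they were 1.04 against class 2 and -0.14 against class 3. With only LADs whose counts summed to 10 or more, they were 0.63 and -0.48. Pooling counts over sequence gave -0.21 and -0.76, so that class 1 was then the least dense.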

How the data were processed

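Members and gene lists were chosen with earlier results of these data known. RNA was measured in 3 mouse embryonic fibroblast lines, 1 library each, prepared with a TruSeq kit per the labels' protocols. The authors deposited 1 table of raw counts per LAD, and its column names describe overlaps with an alignment file. The build is mm10 per the submitters' processing notes, and the aligner, the treatment of reads matching several places, strand and the counting tool are not given in the sources used here. Counts were scaled to each column's total over all LADs (CPM), divided by LAD length in Mb, and put on the log2 scale after adding 1. Class medians were taken per line, and each mean ± SD is over the 3 lines. Values for a LAD in a rank correlation are averages over the lines, and Spearman's rho across LADs is given without a p, since LADs are not independent. LADs were overlaid on GENCODE release M21 (GRCm38). Pseudogene transcripts were aligned to coding transcripts with minimap2 2.31-r1302. edgeR 4.0.16 gave TMM factors and the coefficient of variation, and DESeq2 1.42.0 gave size factors. The scripts were tested on simulated data. The LADs named are the 10 highest by mean CPM and by CPM per Mb, those at or below 3 counts in every line, the 5 longest and 5 shortest, the 10 with the widest range between lines, the densest of each chromosome, and those of the gene lists, and some of these are not reported here. Alternatives were other scalings, a pseudocount of 0.1, filters, other distances and summaries, and leaving out each line.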

Additional observations from a re-analysis of the deposited data

How the results depend on the processing

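Of 89 alternative settings, 61 kept the direction of a class difference, stayed within 1 SD between lines for other values, or stayed within 1.5 times for counts, 23 moved a value further and 5 reversed one. Other scalings could barely change the median density or the class differences, because their shifts cancel over the lines or between classes of a line. Those settings are among the 61 and say little about stability. The median density of 7.64 was 7.79 among LADs with at least 10 counts, 5.65 without LADs holding near-identical pseudogenes, 7.34 as a mean over LADs and 9.58 when counts were pooled over sequence. Class 1 minus class 2 was -0.21 when pooled. Class 1 minus class 3 was -0.48 with the count filter, -0.14 without near-identical pseudogenes and -0.76 when pooled. The rank correlation of density with position was 0.18 with the filter and 0.045 without such pseudogenes, rho with length 0.10, 0.093 and, without division by length, 0.50, and rho with exon share 0.23 without such pseudogenes. The rank correlation with distance was 0.061 without such pseudogenes and 0.12 from midpoints for class 1, -0.13 and 0.047 for class 2, and -0.13 from midpoints for class 3. LADs at or below the floor numbered 1 with a limit of 0 counts, 13 with a limit of 6, and 11 to 15 when each line was left out, which cannot lower the number. LADs with a 4-fold range numbered 31 at a mean count of at least 100, 127 at a range of at least 1 on the log2 scale, and 16 to 45 when each line was left out. Leaving out a line cannot widen a range. The causes were not tested. TMM and DESeq2 factors raised line 2 by a median of 0.11 and 0.13 on the log2 scale. Few counts limit the sparse LADs, and 1 library per line limits every comparison between lines. No paired analysis was possible because the labels give a single group of samples, and the class differences were taken within each line.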
